A study of Homo sapiens with 12 samples.

Results

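Collagen chain transcripts were followed in 4 groups of human lung squamous cell carcinoma (LUSC) cells. Every row of the 2 deposited count tables whose gene symbol has the form of a collagen chain (COL, a number, A, a number) was taken. The rule reads symbols alone, though collagens were picked as a subject with earlier results of these data known. This gave 44 genes of the 38434 named genes in each table, of which 11 encode fibrillar collagens, 8 basement membrane collagens and 25 other collagens. LK2-maspin cells are LK-2 cells that stably carry a lentiviral maspin construct linked to ZsGreen, and LK2-ctrl cells carry the ZsGreen vector alone. LC-AI-maspin and LC-AI-ctrl cells are the same pair made from the RERF-LC-AI line. All 4 groups were selected with blasticidin, and each is a pool of surviving clones rather than 1 clone. With 1 such pool per group, maspin and pool cannot be told apart within a line. Below, an effect of maspin or a change with maspin means the maspin pool against the ctrl pool of its line. LK-2 cells were grown in RPMI1640 and RERF-LC-AI cells in Eagle's MEM, both with serum. Poly(A) RNA of 3 libraries per group was sequenced. The sources used here do not say whether the 3 libraries are separate cultures, so p-values measure the spread between these libraries, which may be technical.

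Collagens are secreted or membrane-bound proteins in which 3 chains wind into a triple helix. Fibrillar collagens such as types I and V form the fibrils of connective tissue, type IV forms the sheet-like network of basement membranes under epithelia, and the remaining types include beaded microfibrils (type VI), fibril-associated chains (types IX and XII) and transmembrane chains (types XIII and XVII). A molecule is often built from chains of different genes, so the transcripts of partner chains are given together below. Maspin, the product of SERPINB5, is a serpin family protein studied in this series for its part in the invasion and migration of LUSC cells.

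Stretches of 4 loci just before transcription start sites are printed, since the genes they precede changed in the maspin comparisons, in opposite directions in the 2 lines (COL26A1), or downward (COL5A1, COL4A1 and COL4A2) or upward (COL6A2) in RERF-LC-AI cells. They are RefSeq sequences on GRCh38.p14, 5′ to 3′ on the plus strand. The table used holds 32 of the 44 genes, matched by symbol. COL26A1 is shown from chr7:101362625-101362874, COL5A1 from chr9:134641553-134641802 and COL6A2 from chr21:46097862-46098111, each 250 bases that end at the base before the start. COL4A1 and COL4A2 lie head to head, and the whole interval of 126 bases between their RefSeq starts is shown, from chr13:110307158-110307283, with COL4A1 read to the left and COL4A2 to the right. In GENCODE the gene record of COL4A2 starts further left, inside that of COL4A1, with 1344 bases between the 2 starts.
COL26A1: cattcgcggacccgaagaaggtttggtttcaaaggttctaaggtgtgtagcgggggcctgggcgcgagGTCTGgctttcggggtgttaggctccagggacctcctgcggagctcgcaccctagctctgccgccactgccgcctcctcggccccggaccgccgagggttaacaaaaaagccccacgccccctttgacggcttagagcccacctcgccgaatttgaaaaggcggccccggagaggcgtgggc
COL5A1: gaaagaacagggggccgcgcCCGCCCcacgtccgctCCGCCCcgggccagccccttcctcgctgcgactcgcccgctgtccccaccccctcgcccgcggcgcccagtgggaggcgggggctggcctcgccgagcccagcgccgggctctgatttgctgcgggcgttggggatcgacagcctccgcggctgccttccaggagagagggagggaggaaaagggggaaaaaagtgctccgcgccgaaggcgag
COL6A2: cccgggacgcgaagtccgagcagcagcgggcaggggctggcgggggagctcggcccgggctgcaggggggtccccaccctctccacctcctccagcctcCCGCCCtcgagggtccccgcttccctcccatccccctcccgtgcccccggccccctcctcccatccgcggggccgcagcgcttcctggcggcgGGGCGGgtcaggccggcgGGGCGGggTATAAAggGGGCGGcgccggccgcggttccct
COL4A1-COL4A2: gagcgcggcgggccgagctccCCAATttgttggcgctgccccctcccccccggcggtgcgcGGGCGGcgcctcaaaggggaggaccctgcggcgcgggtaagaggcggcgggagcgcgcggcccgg
Capitals mark matches on either strand to short motifs, and no 2 of the marked matches overlap. GGGCGG is the GC box read by Sp1 family factors, and 42.6% of 35116 RefSeq promoter windows of 250 bases hold it. The second motif is CCAAT, read by the factor NF-Y and held by 32.0% of windows. For the core promoter, TATAAA was searched, which 10.7% of windows hold. The last motif is CAGAC, an element of SMAD factors, held by 38.0% of windows. Among the 32 collagen windows these motifs were held by 18, 9, 5 and 11 in the same order. COL6A2 holds 4 GC boxes and 1 copy of the core promoter motif, COL5A1 holds 2 GC boxes and no other match, and COL26A1 holds 1 SMAD element alone. The interval shared by COL4A1 and COL4A2 holds 1 GC box and 1 match to the NF-Y motif, in 126 bases rather than the 250 of the windows. These matches describe letters only.

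The LK-2 libraries held 39802246 to 54941357 counts on named genes and the RERF-LC-AI libraries 50143577 to 65454432, and collagens took 0.0781 to 0.116% of them. Levels below are read counts scaled to library size (CPM, with TMM factors over all 12 libraries), and changes are log2 fold changes of maspin over ctrl from edgeR's quasi-likelihood test, with the standard error (SE) and a Benjamini-Hochberg adjusted p over all genes tested in the line. SERPINB5 was at 46.5 ± 1.46 CPM in LK2-maspin and 1.83 ± 0.112 CPM in LK2-ctrl, and at 512 ± 40.4 CPM in LC-AI-maspin and 0.220 ± 0.0688 CPM in LC-AI-ctrl (SD, n = 3 each), in accord with the labels. The epithelial keratin KRT8 was high in both lines, with group means of 607 to 1449 CPM. Among the squamous markers, TP63, KRT5 and KRT14 were low, at or under 1.18 CPM in each group except KRT5 in LK2-maspin (6.91 CPM). From the same marker list, SOX2 was at 398 to 500 CPM in LK-2 and under 1 CPM in RERF-LC-AI cells. DSG3 was at 4.71 to 7.02 CPM in LK-2 and 1.65 to 1.73 CPM in RERF-LC-AI cells. KRT6A was at 1.26 to 2.47 CPM in LK-2 and under 1 CPM in RERF-LC-AI cells. PKP1 was under 1 CPM in LK-2 and at 8.04 to 8.98 CPM in RERF-LC-AI cells. EPCAM was at 536 to 549 CPM in LK-2 and 4.91 to 5.42 CPM in RERF-LC-AI cells. The mesenchymal marker VIM was at 0.590 to 0.651 CPM in LK-2 and 1667 to 1787 CPM in RERF-LC-AI cells. CDH2, another mesenchymal marker, went the other way, at 309 to 342 CPM in LK-2 and 0.363 to 0.473 CPM in RERF-LC-AI cells. Of 14 mesenchymal and fibroblast markers, 9 were higher and 4 lower in LC-AI-ctrl than in LK2-ctrl cells. Of 12 epithelial and squamous markers, 4 were higher and 8 lower. Over all genes tested 61.9% passed in that comparison. The 5 endothelial markers together reached 7.93 CPM at most, and the 6 leukocyte markers 5.46 CPM in LK-2 and 49.4 CPM in RERF-LC-AI libraries, most of it CD68.

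The ctrl cells of the 2 lines carried different collagens. In LC-AI-ctrl cells the type VI chains COL6A1 and COL6A2 were at 250.5 ± 32.7 and 198 ± 30.7 CPM, against 4.27 ± 1.14 and 8.55 ± 3.27 CPM in LK2-ctrl cells (SD, n = 3 each). The type IV chain COL4A2 was at 181 ± 2.50 CPM in LC-AI-ctrl cells and 374 ± 9.68 CPM in LK2-ctrl cells. Basement membrane collagens took 40.9 to 45.8% of all collagen CPM (reads, not scaled by length) in the LC-AI-ctrl libraries and 81.9 to 84.7% in the LK2-ctrl libraries. Fibrillar collagens were a small share in both, 6.50 to 7.43% in LC-AI-ctrl and 3.74 to 4.54% in LK2-ctrl libraries. In bulk RNA such as this, fewer cells of a kind and less RNA per cell cannot be told apart.

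Of the 44 genes, 13 were higher and 20 lower in LC-AI-ctrl than in LK2-ctrl cells, where 61.9% of the 28123 genes tested passed. The largest of the 13 was COL13A1, a transmembrane collagen of the neuromuscular junction, at 53.8 ± 3.01 CPM against 0.558 ± 0.332 CPM in LK2-ctrl (log2 fold change 6.56, SE 0.20). COL1A2, which encodes the second chain of type I collagen, was at 31.9 ± 8.35 CPM against 0.615 ± 0.242 CPM in LK2-ctrl (log2 fold change 5.70, SE 0.22). The fibril-associated chain COL12A1 (4.40, SE 0.12) and the fibrillar chain COL27A1 (4.10, SE 0.20) were also higher in LC-AI-ctrl cells. Among the 20 on the other side, COL4A4 (-4.56, SE 0.18) and COL4A3 (-3.67, SE 0.20), partners in the mature basement membrane network, and COL8A1 (-3.51, SE 0.11), a short-chain collagen of vessel walls and of the cornea, had the largest log2 fold changes. By class, 4 fibrillar chains were higher and 3 lower, 1 basement membrane chain (COL18A1) was higher and 6 lower, and 8 other chains were higher and 11 lower. Cell line, medium and table cannot be told apart in this comparison. With upper-quartile factors or library size only, log2 fold changes between the lines were lower by a median of 0.23 and 0.22, and the split over all genes moved from 8583 higher and 8824 lower to 7056 and 11463, or 7053 and 11396. The collagen split was 13 and 21 with either.

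**Figure D1:**
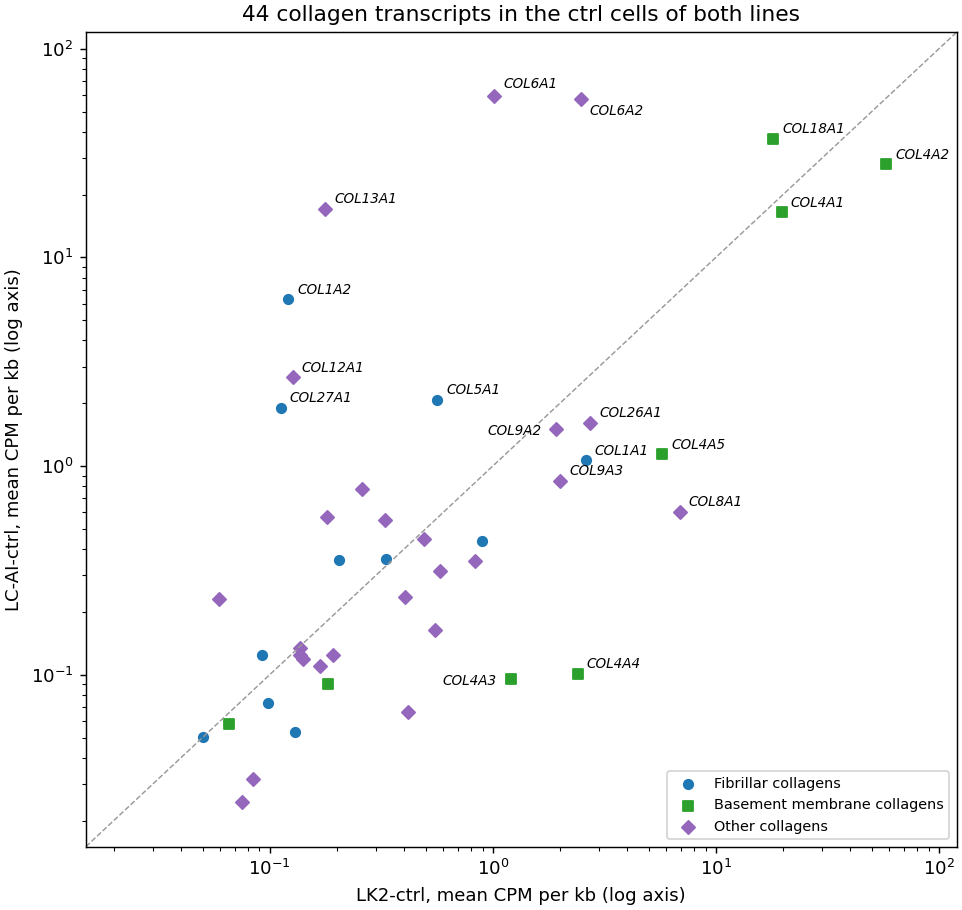
Mean level of each of the 44 collagen genes in LC-AI-ctrl (vertical) against LK2-ctrl (horizontal), in CPM per kb of the MANE Select transcript on log axes, with the dashed line at equal levels and names for genes over 1.2 CPM per kb in either. COL6A1 and COL6A2 stand at 59.6 and 57.6 CPM per kb in LC-AI-ctrl, while COL4A2 stands at 58.0 CPM per kb in LK2-ctrl.

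Per kb of transcript, which takes account of length alone, COL6A1 (59.6 CPM per kb), COL6A2 (57.6), COL18A1 (37.1), COL4A2 (28.0), COL13A1 (17.1) and COL4A1 (16.4) ranked highest in LC-AI-ctrl cells. In LK2-ctrl cells they were COL4A2 (58.0), COL4A1 (19.8), COL18A1 (18.0), COL8A1 (6.89) and COL4A5 (5.73). A mean over 1 CPM was reached by 31 genes in LK2-maspin, 32 in LK2-ctrl, 30 in LC-AI-maspin and 30 in LC-AI-ctrl cells. In all 4 groups 8 genes stayed at or under 1 CPM, namely COL11A1, COL15A1, COL21A1, COL2A1, COL3A1, COL5A3, COL6A5 and COL9A1. COL3A1, a major chain of skin and vessel collagen, had group means of 0.25 to 0.27 CPM.

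In LK-2 cells, 1 collagen transcript differed between maspin and ctrl past the threshold. COL26A1, which encodes a short-chain collagen with an EMI domain, had 16.3, 17.6 and 17.8 CPM in the LK2-maspin libraries, against 7.83, 7.83 and 8.74 CPM in the LK2-ctrl libraries. All 3 maspin libraries lay above all 3 ctrl libraries, and the rise was 2.12-fold (log2 fold change 1.08, SE 0.10, adjusted p = 0.000299, edgeR). The gene (Entrez ID 136227) spans 101362875 to 101559024 of chromosome 7 (GRCh38, plus strand). It passed in all 16 alternatives tried, with adjusted p from 2.68e-18 to 0.00736. Of all 26270 genes tested in LK-2, 0.533% passed.

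The other 43 collagen genes did not pass in LK-2. At an unadjusted p under 0.05 there were 3 higher and 4 lower of 44, where 1670 of 26270 genes reached it. Without replicate numbers in the fit, no fibrillar or basement membrane collagen passed by edgeR's quasi-likelihood or likelihood ratio test or by DESeq2. In these classes 2 of 11 and 2 of 8 had an unadjusted p under 0.05. Calls with the replicate number as a block, which add basement membrane chains, are given at the end. The groups did not overlap for 8 of 44 genes, 4 higher and 4 lower, against 11.6% of all genes tested (6.10% higher, 5.45% lower). The median log2 fold change was -0.03 over the 44 genes, -0.09 over the fibrillar, 0.04 over the basement membrane and -0.06 over the other collagens, beside -0.00 over all genes. COL8A1 had 32.6, 28.1 and 25.8 CPM in LK2-maspin and 37.5, 36.6 and 39.9 CPM in LK2-ctrl libraries, which do not overlap (log2 fold change -0.40, SE 0.09, adjusted p = 0.133, edgeR). Without LK2-maspin replicate 1, its highest maspin library, it passed (-0.50, SE 0.09, adjusted p = 0.0299). With every library kept, COL8A1 passed by the likelihood ratio test (adjusted p = 0.0213) and DESeq2 (adjusted p = 0.0161). It also passed with all 12 libraries in 1 fit (adjusted p = 0.0384, quasi-likelihood test).

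COL4A2, the most abundant LK-2 collagen, and COL1A1 stayed close to their ctrl level. COL4A2 had 328, 356 and 364 CPM in LK2-maspin against 363, 380 and 380 CPM in LK2-ctrl libraries (log2 fold change -0.10, SE 0.06, adjusted p = 0.931). COL1A1, the first chain of type I collagen and the leading fibrillar transcript of this line, had 12.5, 15.7 and 19.5 CPM in LK2-maspin against 11.5, 15.6 and 19.3 CPM in LK2-ctrl libraries (log2 fold change 0.04, SE 0.19). For COL1A1 the spread within each group was far larger than the difference between the groups. Replicate 1 had the lowest CPM of its group for 24 of 44 collagen genes in LK2-maspin and for 25 in LK2-ctrl, and replicate 3 the highest for 26 in each. COL6A2, for example, had 6.30, 10.2 and 11.2 CPM in LK2-maspin and 5.55, 8.05 and 12.04 CPM in LK2-ctrl libraries.

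**Figure D2:**
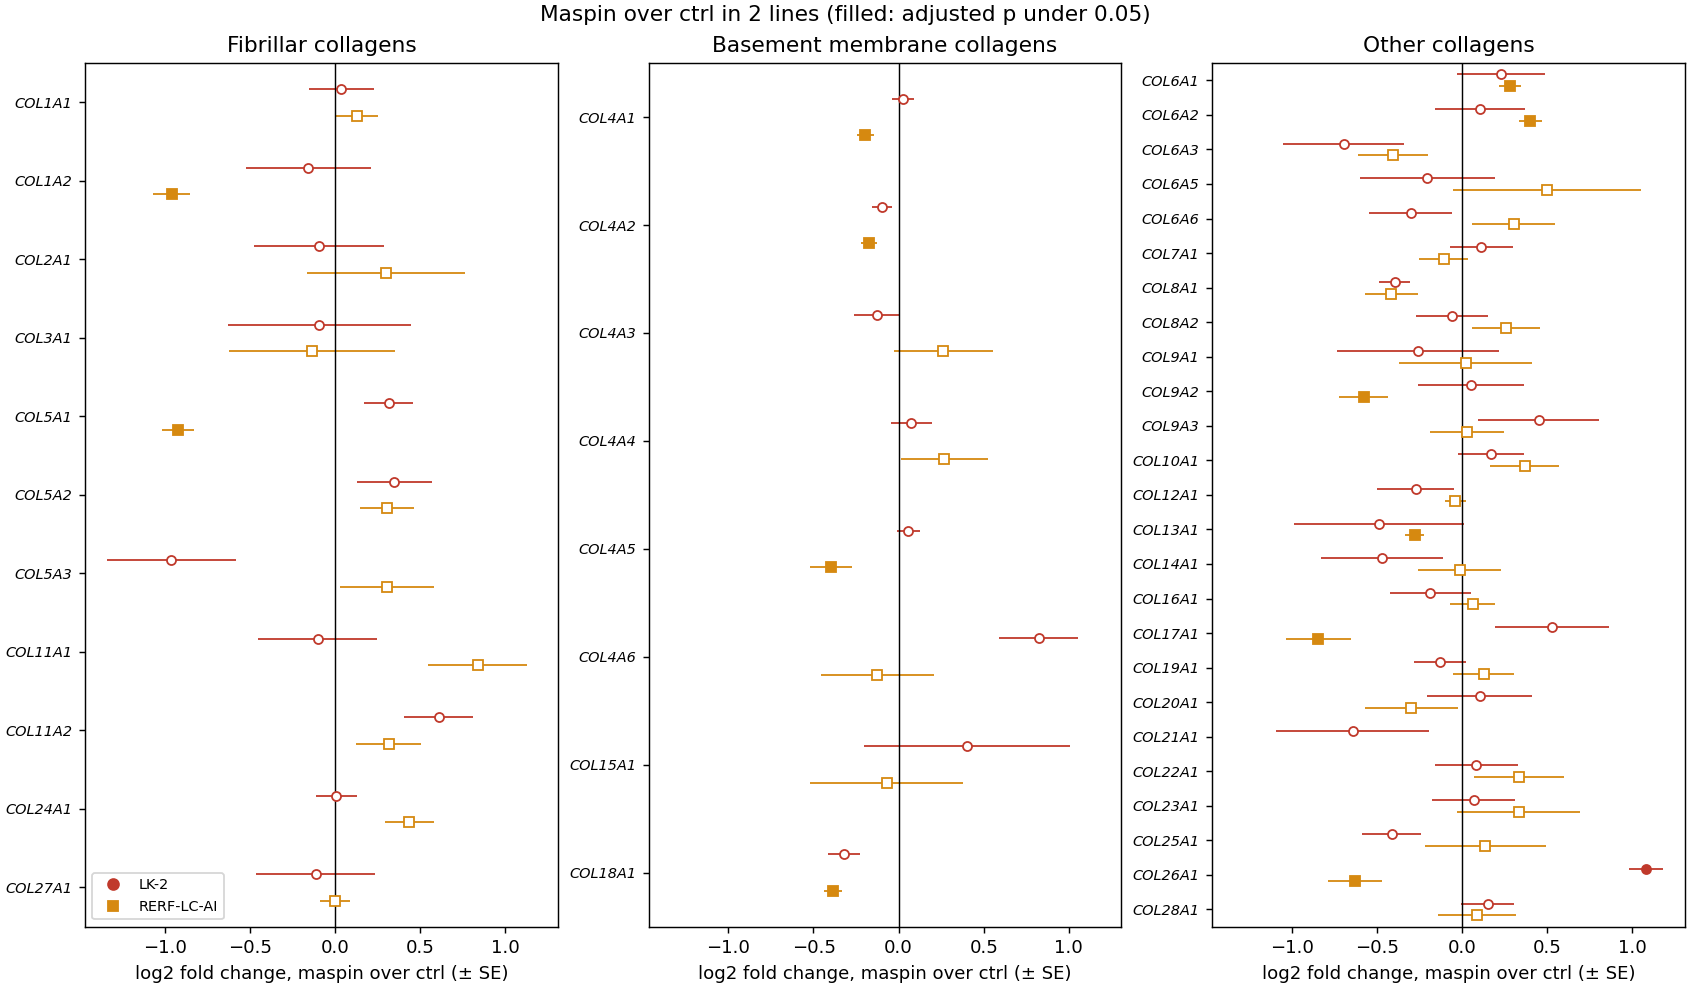
Log2 fold change of maspin over ctrl (horizontal) with its SE for each collagen gene in LK-2 (circles) and RERF-LC-AI (squares), by class, filled where adjusted p is under 0.05. COL26A1 is filled on opposite sides (1.08 for LK-2, -0.63 for RERF-LC-AI), and the RERF-LC-AI squares of COL1A2 and COL5A1 lie at -0.96 and -0.92. COL21A1 was not tested in RERF-LC-AI.

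In RERF-LC-AI cells, 12 of 43 collagen genes tested passed, 2 higher and 10 lower in LC-AI-maspin. Over all 25197 genes tested 10.5% passed, 4.01% higher and 6.53% lower. The filter on low counts left out COL21A1. The 12 hold 2 of 11 fibrillar chains, both lower, 4 of 8 basement membrane chains, all lower, and 6 of 24 other chains, 2 higher and 4 lower. The median log2 fold change was 0.03 over the 43 genes, 0.30 over the fibrillar, -0.15 over the basement membrane and 0.04 over the other collagens, beside 0.01 over all genes, so that the fibrillar median and the direction of the fibrillar chains that passed differ in sign. Groups did not overlap for 16 of 43 genes, 5 higher and 11 lower, where 25.0% of all genes tested did not (11.8% higher, 13.3% lower).

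The fibrillar chains COL1A2 and COL5A1 had the largest falls of the 10. COL1A2 (Entrez ID 1278, chromosome 7, 94394895 to 94431227, plus strand) had 17.7, 14.98 and 16.6 CPM in LC-AI-maspin, against 41.5, 28.0 and 26.2 CPM in LC-AI-ctrl libraries. The groups did not overlap, and LC-AI-ctrl replicate 1, which had the highest CPM of its group for 28 of 44 collagen genes, stood above its 2 partners. Without it the change was -0.72 on the log2 scale and still passed. The level was 1.94-fold lower with maspin (log2 fold change -0.96, SE 0.11, adjusted p = 2.64e-07, edgeR). COL5A1, whose type V chain joins type I fibrils and sets their growth (Entrez ID 1289, chromosome 9, 134641803 to 134844843, plus strand), had 9.68, 9.68 and 8.36 CPM in LC-AI-maspin against 19.4, 16.0 and 17.2 CPM in LC-AI-ctrl libraries. Its level was 1.90-fold lower (log2 fold change -0.92, SE 0.09, adjusted p = 3.03e-08), with a wide gap between the groups. Both passed in all 16 alternatives, COL1A2 with adjusted p up to 0.000803 and COL5A1 up to 6.26e-05.

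Other fibrillar chains had positive changes that did not pass. COL24A1 had 4.18, 3.55 and 4.41 CPM in LC-AI-maspin against 2.83, 3.02 and 3.13 CPM in LC-AI-ctrl libraries (log2 fold change 0.44, SE 0.15, adjusted p = 0.0529), and passed in 6 of 16 alternatives, among them without LC-AI-maspin replicate 2 (adjusted p = 0.0360). COL11A1, from 41 to 69 counts per library in LC-AI-maspin and 24 to 30 in LC-AI-ctrl, changed by 0.84 on the log2 scale (SE 0.29, adjusted p = 0.0648). It passed in 1 of 16 alternatives, the likelihood ratio test (adjusted p = 0.0377). COL1A1, the partner of COL1A2, had 7.39, 7.53 and 5.85 CPM in LC-AI-maspin against 7.14, 6.37 and 5.48 CPM in LC-AI-ctrl libraries (0.13, SE 0.12, adjusted p = 0.634). COL5A2, the partner of COL5A1, was at 0.30 on that scale (SE 0.16, adjusted p = 0.286), and COL27A1 at 0.00 (SE 0.09).

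Among basement membrane collagens, COL18A1, the precursor of the antiangiogenic fragment endostatin, had the smallest p. It had 142, 158 and 161 CPM in LC-AI-maspin against 213, 189 and 199 CPM in LC-AI-ctrl libraries, with no overlap (log2 fold change -0.38, SE 0.05, adjusted p = 6.67e-06). In the GENCODE annotation 28.9% of its MANE Select transcript (1563 bases) overlaps exons of SLC19A1 on the other strand, and the sources used here do not say whether counting used strand. SLC19A1 itself was lower in LC-AI-maspin by a smaller log2 fold change, -0.17 (SE 0.05, adjusted p = 0.0248). Its part in the COL18A1 change was not tested. Among the other collagen genes that passed in a maspin comparison, exons of other genes covered at most 1.26% of the transcript (COL4A2). The type IV pair moved by a small amount. COL4A1 had 92.0, 91.8 and 97.7 CPM in LC-AI-maspin against 109, 104 and 110 CPM in LC-AI-ctrl libraries (-0.20, SE 0.05, adjusted p = 0.00659), and COL4A2 had 152, 162 and 165 CPM against 183, 181 and 178 CPM in LC-AI-ctrl libraries (-0.18, SE 0.05, adjusted p = 0.0118). Neither pair of groups overlapped. COL4A1 did not pass without LC-AI-ctrl replicate 3 (adjusted p = 0.0646), and COL4A2 did not without LC-AI-maspin replicate 1 (adjusted p = 0.0821).

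COL4A5, a chain of the kidney and skin basement membrane, had 6.93, 5.05 and 4.99 CPM in LC-AI-maspin against 7.59, 7.37 and 7.31 CPM in LC-AI-ctrl libraries (log2 fold change -0.40, SE 0.12, adjusted p = 0.0377). LC-AI-maspin replicate 1 lay close to the ctrl libraries. The call was lost when LC-AI-maspin replicate 2 or 3 or any 1 of the LC-AI-ctrl replicates was left out (adjusted p 0.0592 to 0.223). It was also lost with upper-quartile factors (adjusted p = 0.0700) and library size only (adjusted p = 0.108). COL4A3, COL4A4, COL4A6 and COL15A1 had group means of 1.22 CPM or less in this line and did not pass.

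The type VI chains COL6A1 and COL6A2 rose. COL6A1 had 289, 327 and 298 CPM in LC-AI-maspin against 285, 246 and 221 CPM in LC-AI-ctrl libraries, so that the lowest maspin library lay just above the highest ctrl library (1.22-fold, log2 fold change 0.28, SE 0.06, adjusted p = 0.00267, edgeR). DESeq2 gave adjusted p = 0.0964 for it, and without LC-AI-ctrl replicate 3 the change was 0.20 (SE 0.07, adjusted p = 0.0704). COL6A2 had 242, 285 and 259 CPM in LC-AI-maspin against 231, 194 and 170 CPM in LC-AI-ctrl libraries (1.32-fold, 0.40, SE 0.07, adjusted p = 0.000168). The partner chain COL6A3, which joins them in the type VI molecule, had 1.74, 2.21 and 1.58 CPM in LC-AI-maspin against 3.08, 2.58 and 1.66 CPM in LC-AI-ctrl libraries, and its groups overlapped (-0.40, SE 0.20, adjusted p = 0.262).

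The other chains that fell number 4. COL13A1 had 43.8, 43.1 and 46.1 CPM in LC-AI-maspin against 57.2, 52.5 and 51.7 CPM in LC-AI-ctrl libraries (log2 fold change -0.28, SE 0.06, adjusted p = 0.000888). COL17A1, the transmembrane collagen of hemidesmosomes, had 1.45, 2.29 and 1.60 CPM in LC-AI-maspin against 2.995, 3.92 and 2.70 CPM in LC-AI-ctrl libraries (-0.84, SE 0.19, adjusted p = 0.00276). The fibril-associated cartilage chain COL9A2 had 3.06, 2.73 and 2.79 CPM in LC-AI-maspin against 4.72, 3.85 and 4.25 CPM in LC-AI-ctrl libraries (-0.58, SE 0.15, adjusted p = 0.00733). None of these 3 overlapped between the groups. COL26A1 had 3.15, 2.68 and 3.47 CPM in LC-AI-maspin against 5.68, 3.60 and 5.15 CPM in LC-AI-ctrl libraries (-0.63, SE 0.16, adjusted p = 0.00808). Its lowest ctrl library, replicate 2, lay next to the highest maspin library. Without LC-AI-ctrl replicate 1 (adjusted p = 0.0655) or LC-AI-maspin replicate 2 (adjusted p = 0.0780) COL26A1 did not pass.

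The RERF-LC-AI calls depended on the spread that was assumed. When all 12 libraries entered 1 fit, which shares 1 estimate of spread between the lines, 5 of the 12 passed (COL1A2, COL4A5, COL5A1, COL18A1 and COL26A1), all lower. The fold changes in that fit differed little, as for COL6A2 (0.40, SE 0.17, adjusted p = 0.271). Leaving out single libraries gave 9 to 11 collagen calls.

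The collagen genes that did not pass spanned log2 fold changes of -0.42 (COL8A1) to 0.84 (COL11A1) in RERF-LC-AI and of -0.96 (COL5A3) to 0.82 (COL4A6) in LK-2. COL12A1, a fibril-associated chain of tendon and dense connective tissue, was well covered in RERF-LC-AI, at 30.4 CPM in LC-AI-maspin and 31.2 CPM in LC-AI-ctrl (-0.04, adjusted p = 0.802). COL7A1, the chain of the anchoring fibrils under stratified epithelia, was at 4.71 CPM in LC-AI-maspin and 5.09 CPM in LC-AI-ctrl (-0.11, adjusted p = 0.755), and at 3.27 CPM in LK2-maspin and 3.03 CPM in LK2-ctrl (0.11). COL4A6, a type IV chain of epithelial and smooth muscle basement membranes, had 1.66, 2.04 and 2.74 CPM in LK2-maspin against 1.34, 1.01 and 1.29 CPM in LK2-ctrl libraries. These do not overlap, but the change missed the threshold (adjusted p = 0.299). COL8A1, which was lower without passing in LK-2, was at 2.50 CPM in LC-AI-maspin and 3.33 CPM in LC-AI-ctrl (-0.42, SE 0.16, adjusted p = 0.0967).

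**Figure D3:**
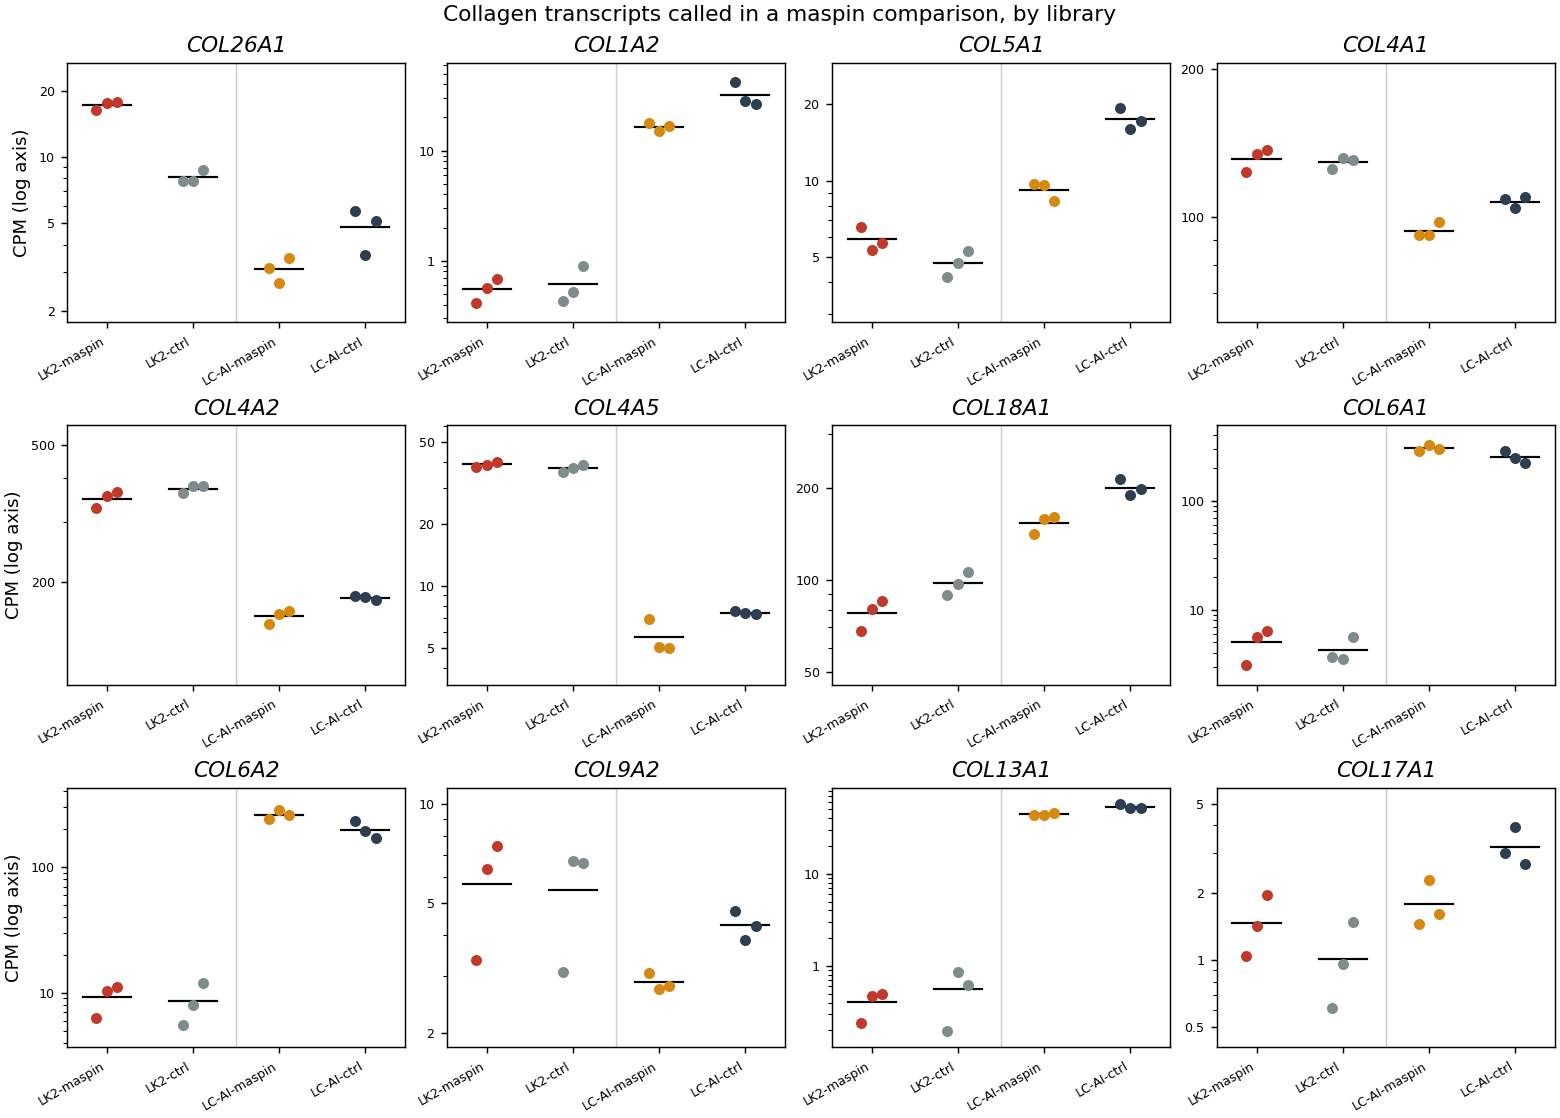
CPM (log axis) of the 12 collagen genes that passed in a maspin comparison, 1 point per library and a line at each group mean of 3 libraries. The maspin libraries of COL26A1 lie above ctrl in LK-2 (17.2 against 8.13 CPM on average) and below it in RERF-LC-AI (3.10 against 4.81 CPM).

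The effect of maspin on 2 collagen genes differed between the lines, both with a more positive effect in LK-2. Of 28123 genes tested 1.76% differed, 1.35% in this direction. Each group is 1 pool of clones, and the lines also differ in medium, count table and SERPINB5 level with maspin. The paper also reports maspin in nucleus and cytoplasm of LK2-maspin cells, but in the cytoplasm and not the nucleus of LC-AI-maspin cells. It describes an EGFR driver mutation in RERF-LC-AI cells and wild-type EGFR in LK-2 cells. The parts of these in a difference between the lines cannot be told apart. For COL26A1 the LK-2 effect minus the RERF-LC-AI effect was 1.71 on the log2 scale (SE 0.20, adjusted p = 8.29e-05, edgeR interaction test over 12 libraries), and the gene passed within each line in opposite directions. For COL5A1 the difference was 1.24 (SE 0.17, adjusted p = 0.000398). In LK-2 COL5A1 had 6.61, 5.33 and 5.72 CPM in LK2-maspin against 4.17, 4.77 and 5.30 CPM in LK2-ctrl libraries, groups that just do not overlap, but its change there did not pass (0.31, SE 0.15, adjusted p = 0.796). Both differences passed in all 21 alternatives, with adjusted p up to 0.000543 and 0.00255. At an unadjusted p under 0.05 the differences of 10 of 44 collagen genes were positive in 7 and negative in 3, where 3517 of 28123 genes reached it, 1919 positive and 1598 negative.

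For COL1A2 the difference could not be shown. It had 0.415, 0.569 and 0.675 CPM in LK2-maspin against 0.435, 0.521 and 0.890 CPM in LK2-ctrl libraries, from 22 to 44 counts per library (log2 fold change -0.16, SE 0.37), and the difference of 0.80 between the lines has an SE of 0.36 (adjusted p = 0.361). COL17A1 had a difference of 1.38 (SE 0.40, adjusted p = 0.0924). It passed without LK2-ctrl replicate 3 (1.77, adjusted p = 0.00928), without LK2-maspin replicate 1 (1.58, adjusted p = 0.0383), with DESeq2 (1.42, adjusted p = 0.0145), with the likelihood ratio test (adjusted p = 0.0285) and with no filter (adjusted p = 0.0332). COL4A5 had a difference of 0.46 (SE 0.14, adjusted p = 0.120), and passed with DESeq2 (adjusted p = 0.0110), the likelihood ratio test (adjusted p = 0.0464) and no filter (adjusted p = 0.0490). It also passed without LC-AI-maspin replicate 1 (0.63, adjusted p = 0.00835) or LK2-ctrl replicate 3 (0.53, adjusted p = 0.0407). COL18A1 had 68.3, 80.3 and 85.3 CPM in LK2-maspin against 89.2, 96.9 and 106 CPM in LK2-ctrl libraries, which do not overlap. This change of -0.32 (SE 0.09, adjusted p = 0.332) did not pass in a fit that takes no account of replicate numbers, and its difference from the RERF-LC-AI change of -0.38 was 0.06 (SE 0.12, adjusted p = 0.905).

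The summed levels of the classes are led by their most abundant genes and do not show a change shared by each chain. Summed CPM of the basement membrane collagens was 395 to 431 in LC-AI-maspin against 485 to 515 in LC-AI-ctrl libraries, and of the fibrillar collagens 57.2 to 63.7 against 72.8 to 93.5 in LC-AI-ctrl libraries, with no overlap in either. Of the 11 fibrillar chains, 8 had a positive log2 fold change and 3 a negative one, COL1A2 and COL5A1 among the latter. None of the 8 passed, and 52.65% of all genes tested in RERF-LC-AI had a positive change. Mean CPM of COL1A2 alone was 31.9 in LC-AI-ctrl and 16.4 in LC-AI-maspin cells. In the basement membrane sum, means went from 201 to 154 CPM for COL18A1, from 181 to 160 for COL4A2 and from 108 to 93.8 for COL4A1. The other collagens summed to 645 to 722 CPM in LC-AI-maspin and 514 to 650 CPM in LC-AI-ctrl libraries, which overlap. All 44 genes together came to 1154 ± 48.2 CPM in LC-AI-maspin and 1154 ± 92.0 CPM in LC-AI-ctrl libraries (SD, n = 3 each), so that their makeup differed and their total did not differ beyond its spread. In LK-2 the sums of each class overlapped between maspin and ctrl. In replicate order, basement membrane collagens summed to 592, 644 and 668 CPM in LK2-maspin and 647, 677 and 696 CPM in LK2-ctrl libraries. Set by replicate number, which was not taken as a pairing, each maspin library was lower for this class. Each was higher for the fibrillar class, and the other collagens were mixed.

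**Figure D4:**
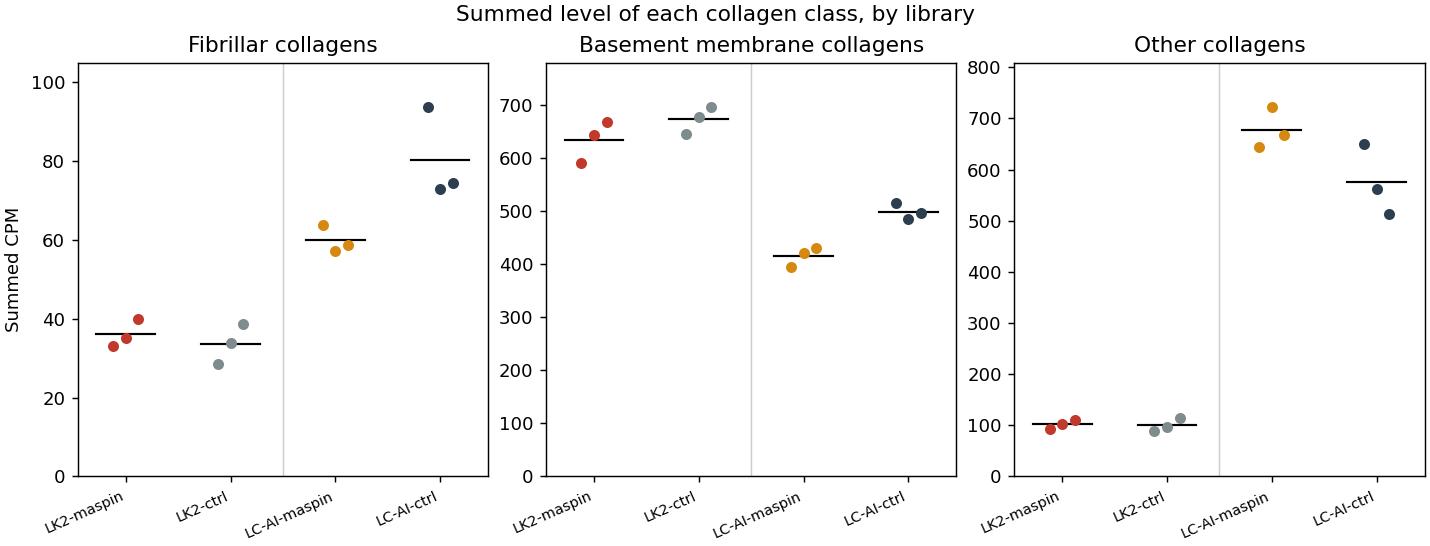
Summed CPM of the 11 fibrillar, 8 basement membrane and 25 other collagen genes, from 0, 1 point per library and a line at each group mean. The LC-AI-maspin libraries lie below the LC-AI-ctrl libraries for the fibrillar (57.2 to 63.7 against 72.8 to 93.5 CPM) and basement membrane classes (395 to 431 against 485 to 515 CPM). Of the 11 fibrillar chains, 8 had a positive log2 fold change in RERF-LC-AI cells, none past the threshold, as did 52.65% of all genes tested.

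Partner chains of 1 molecule did not keep 1 ratio across the groups. Per kb of transcript, COL1A2 over COL1A1 was 2.32 to 3.31 in LC-AI-maspin against 5.13 to 6.78 in LC-AI-ctrl libraries, and 0.0388 to 0.0423 in LK2-maspin against 0.0388 to 0.0539 in LK2-ctrl libraries. By this measure RERF-LC-AI cells held more COL1A2 than COL1A1, and LK-2 cells far less. COL5A1 over COL5A2 was 2.16 to 2.85 in LC-AI-maspin and 5.16 to 6.27 in LC-AI-ctrl libraries, without overlap, and 1.34 to 2.22 in LK2-maspin and 1.45 to 1.92 in LK2-ctrl libraries, with overlap. COL4A2 over COL4A1 was steadier than these in RERF-LC-AI cells, at 1.67 to 1.79 in LC-AI-maspin and 1.64 to 1.76 in LC-AI-ctrl libraries. In LK-2 the same ratio was 2.69 to 2.70 in LK2-maspin and 2.92 to 2.94 in LK2-ctrl libraries, a small gap that is wider than the spread within either group. The other type IV pairs that lie head to head were less steady. COL4A4 over COL4A3 was 2.22 to 2.43 in LK2-maspin and 1.78 to 2.18 in LK2-ctrl libraries. COL4A5 over COL4A6 was 14.98 to 23.4 in LK2-maspin and 27.4 to 38.2 in LK2-ctrl libraries. Neither ratio overlapped in LK-2, and both overlapped in RERF-LC-AI cells. A link between this layout and a steady ratio was not tested. COL6A1 over COL6A2 was 0.941 to 0.976 in LC-AI-maspin and 1.01 to 1.06 in LC-AI-ctrl libraries. COL6A1 exceeded COL6A3 per kb by 372 to 471 times in LC-AI-maspin and 232 to 333 times in LC-AI-ctrl libraries. These ratios are descriptions and rest on the length of 1 transcript per gene.

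**Figure D5:**
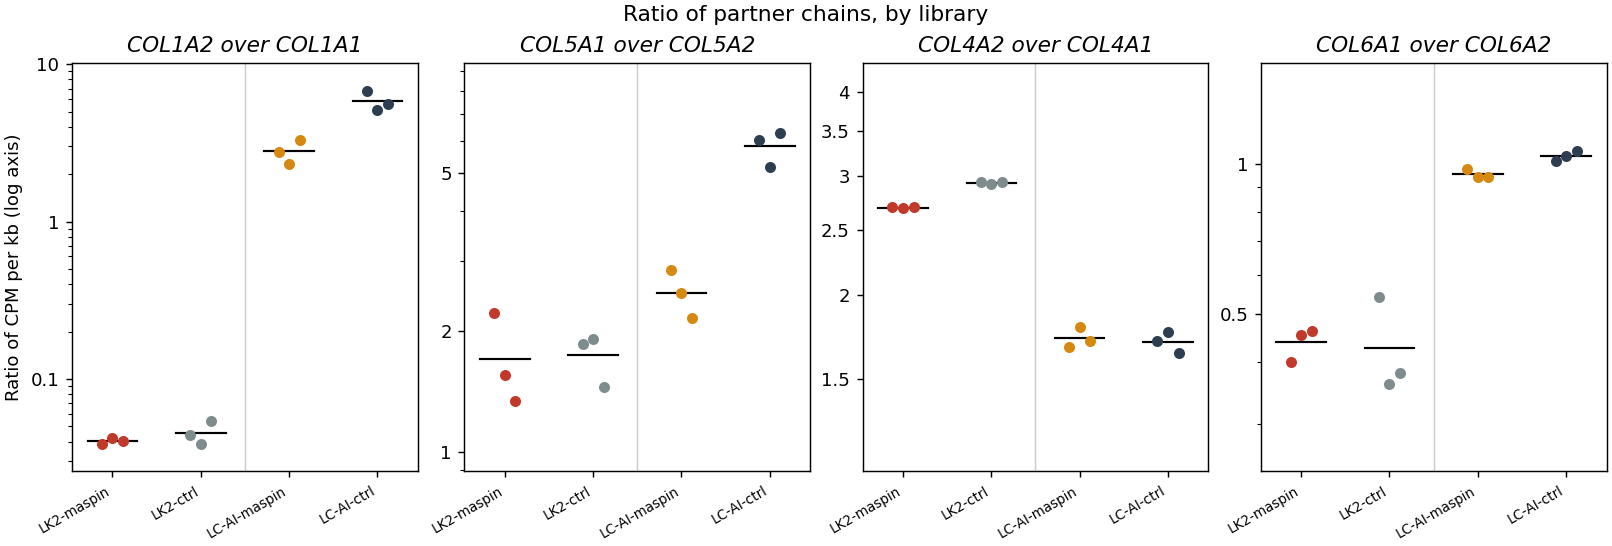
Ratio of CPM per kb (log axis) of partner chains in each library, with a line at each group mean. COL1A2 over COL1A1 and COL5A1 over COL5A2 lie lower in LC-AI-maspin (2.32 to 3.31 and 2.16 to 2.85) than in LC-AI-ctrl libraries (5.13 to 6.78 and 5.16 to 6.27), while COL4A2 over COL4A1 overlaps between them.

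Genes that act on collagen were also read, from lists written as whole groups. Over all genes tested 10.5% passed in RERF-LC-AI, 0.533% in LK-2 and 1.76% for the difference between the lines, and the lists are small. Of 21 genes for the folding and modification of collagen chains, 2 were higher and 5 lower in LC-AI-maspin, and none passed in LK-2 (2 with an unadjusted p under 0.05). The collagen chaperone SERPINH1 fell (log2 fold change -0.26, SE 0.05, adjusted p = 0.000279), at 292 CPM in LC-AI-maspin and 349 CPM in LC-AI-ctrl. TMEM38B, a channel of the endoplasmic reticulum needed for collagen synthesis (-0.47, SE 0.07), the galactosyltransferase COLGALT2 (-0.35, SE 0.07), the isomerase FKBP14 (-0.24, SE 0.06) and the proline hydroxylase P3H2 (-0.35, SE 0.11) also fell, while COLGALT1 (0.17, SE 0.05) and the lysine hydroxylase PLOD2 (0.16, SE 0.05) rose. The effect of maspin differed between the lines for 2 of the 21, P3H2 (1.103, adjusted p = 0.017) and TMEM38B (0.53, adjusted p = 0.0212). The list's median was -0.08 for RERF-LC-AI cells and 0.03 for LK-2 cells.

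Of 14 genes for procollagen processing and crosslinking, the lysyl oxidases LOX (-0.44, SE 0.08, adjusted p = 0.000340) and LOXL2 (-0.39, SE 0.05, adjusted p = 2.10e-06) fell in RERF-LC-AI, and none passed in LK-2 (1 with an unadjusted p under 0.05). The list's median was -0.18 for RERF-LC-AI cells and -0.04 for LK-2 cells. Among 10 collagen receptors, 1 rose in each line. The discoidin receptor DDR2 was at 23.1 CPM in LC-AI-maspin and 10.2 CPM in LC-AI-ctrl (1.18, SE 0.08, adjusted p = 1.88e-11). The integrin chain ITGA1 was at 11.9 CPM in LK2-maspin and 6.43 CPM in LK2-ctrl (0.89, SE 0.12, adjusted p = 0.00530). The difference between the lines passed for 1 gene of each of these 2 lists, LOXL1 (0.77, adjusted p = 0.0492) and ITGA1 (0.86, adjusted p = 0.0112). Of the collagen-cleaving proteases, MMP14 (-0.34, SE 0.06) and MMP1 (-0.99, SE 0.26) fell in RERF-LC-AI, 2 of 7 tested, and none of 6 passed in LK-2 (1 with an unadjusted p under 0.05). MMP14 was the 1 of 8 whose effect differed between the lines (0.49, adjusted p = 0.0352). Of the fibril-binding proteoglycans, BGN (0.83, SE 0.18) and ASPN (1.87, SE 0.56) rose in RERF-LC-AI, 2 of 4 tested, and none of 6 passed in LK-2 or for the difference (in LK-2 2, for the difference 0, with an unadjusted p under 0.05). ASPN was below 1 CPM in every group. These lists were read with the quasi-likelihood test alone.

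Markers of other cell types were set beside the collagen changes. Over all genes tested 10.5% passed in RERF-LC-AI, 0.533% in LK-2 and 1.76% for the difference between the lines. The 14 mesenchymal and fibroblast markers summed to 1896 to 2073 CPM in LC-AI-maspin against 2008 to 2201 CPM in LC-AI-ctrl libraries, and 2 of 14 fell, PDGFRB (-1.59, SE 0.15) and FBN1 (-0.37, SE 0.10). VIM, the most abundant of them, did not pass (-0.10, SE 0.05, adjusted p = 0.224). The 12 epithelial and squamous markers summed to 1498 to 1607 CPM in LC-AI-maspin against 2050 to 2175 CPM in LC-AI-ctrl libraries. Of the 10 tested there, 3 fell, KRT8, KRT18 and DSP. In LK-2 the mesenchymal sum was 371 to 446 CPM in LK2-maspin and 391 to 430 CPM in LK2-ctrl libraries. Of the 14 markers 2 rose there, TWIST1 (0.65, SE 0.08) and SNAI2 (1.17, SE 0.21). The LK-2 epithelial and squamous sum was 2687 to 2764 CPM in LK2-maspin and 2561 to 2698 CPM in LK2-ctrl libraries, which overlap. Of its 11 genes tested there, the basal keratin KRT5 rose (3.25, SE 0.23, adjusted p = 4.65e-05), and 5 were higher and 1 lower at an unadjusted p under 0.05. Over all genes 1670 of 26270 reached that value in LK-2. Effects differed between the lines for 3 of 12 epithelial (KRT8, KRT18 and DSP) and 3 of 14 mesenchymal markers (PDGFRB, THY1 and TWIST1). The part of these shifts in the collagen changes was not tested.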

How the data were processed

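Reads of poly(A), strand-specific libraries had been trimmed with Trimmomatic 0.39 and mapped with BWA 0.7.17 and SAMtools (1.12 for LK-2, 1.10 for RERF-LC-AI) to GRCh38.p13, per the paper and the submitters' processing notes. The authors deposited counts of mapped reads per gene, 1 table per line, which were used. They also deposited signal columns in which the counts were scaled with edgeR 3.16.5, to the library total or with TMM factors, which were not used. The counting tool and its use of strand are not given in the sources used here. Among counts from 1 to 9, 23.7 to 26.0% were odd, so that most fragments count as 2. The 646 unnamed rows (0.292 to 0.416% of counts) were left out.

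Each line was fitted on its own 6 libraries with edgeR 4.0.16 in R 4.3.3 (quasi-likelihood F test, TMM, default filter with a minimum count of 10 and minimum total of 15), at a Benjamini-Hochberg adjusted p of 0.05. Each SE was obtained as the absolute log2 fold change divided by √F. The difference between the lines and the ctrl comparison came from 1 fit of 12 libraries. CPM carry TMM factors of all 12 libraries, so ratios of CPM can differ slightly from the fitted folds. Lengths and positions come from GENCODE 44 on GRCh38. Fits were tested on simulated counts. DESeq2 1.42.0 was an alternative. Figures used Python 3.11.15, pandas 2.3.3 and matplotlib 3.10.9.

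Collagen genes, classes and lists were chosen with earlier results of these data known. Values of each library are given for COL1A2, COL5A1 and COL26A1, for collagen genes past the threshold in a maspin comparison or the difference, and for the leading gene of each class and line. From each other list up to 6 genes past the threshold are named per line. COL3A1, COL4A6, COL5A2, COL5A3, COL6A3, COL7A1, COL11A1, COL12A1, COL24A1, SLC19A1 and VIM were named after their values were seen, as partners, neighbours, extremes or near the threshold. SOX2, DSG3, KRT6A and PKP1 were likewise named after their values were seen.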

Additional observations from a re-analysis of the deposited data

Results flagged for a closer look

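The effect of maspin on COL26A1 differed between LK-2 and RERF-LC-AI cells by 1.71 on the log2 scale (LK-2 minus RERF-LC-AI, SE 0.20, adjusted p = 8.29e-05, edgeR interaction test), with all 3 LK2-maspin libraries above and all 3 LC-AI-maspin libraries below the ctrl libraries of their line. The effect on COL5A1 differed by 1.24 (SE 0.17, adjusted p = 0.000398), again with groups that did not overlap in either line. Both differences passed with each library left out in turn.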

How the results depend on the processing

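No change that passed reversed its direction under any alternative run. In LK-2 the collagen count of 1 was 2 with the likelihood ratio test, DESeq2 and all 12 libraries in 1 fit, each adding COL8A1, and 1 to 2 when single libraries were left out. The count over all genes, 140, was 70 at an adjusted p under 0.01, 251 with all 12 libraries in 1 fit, 280 with DESeq2, 314 with the likelihood ratio test, and 50 to 199 without single libraries (52 without LK2-maspin replicate 2, 82 without LK2-maspin replicate 3, 50 without LK2-ctrl replicate 2). In RERF-LC-AI the collagen count of 12 was 5 with all 12 libraries in 1 fit and 9 to 11 without single libraries, and the 2655 genes were 1642 at 0.01, 1163 with 12 libraries and 1764 to 2594 without single libraries, the lowest without LC-AI-maspin replicate 3. Between the lines the 2 collagen genes were 4 with no filter or the likelihood ratio test, 5 with DESeq2 and 2 to 4 without single libraries (4 without LK2-ctrl replicate 3), and the 494 genes were 196 at 0.01, 884 with the likelihood ratio test, 981 with DESeq2 and 275 to 754 without single libraries (306 without LK2-maspin replicate 2, 316 and 754 without LK2-ctrl replicates 2 and 3, 275 without LC-AI-maspin replicate 3, 282 without LC-AI-ctrl replicate 3). The causes were not tested. Counts between the ctrl groups stayed within 1.5 times.

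Libraries of maspin and ctrl share replicate numbers. Over all genes tested, deviations of equal numbers from their group means correlated by 0.300, 0.0415 and 0.323 in LK-2 and 0.111, 0.126 and 0.0439 in RERF-LC-AI, so that not every pair passed 0.1, and the number was not taken as a pairing. This depends on the genes read. Among genes whose mean log2 CPM passed 3 every pair was over 0.1 (0.749, 0.116 and 0.753 in LK-2, while the RERF-LC-AI pairs had 0.361, 0.3902 and 0.196). The collagen genes alone gave 0.661, 0.410 and 0.644 for the LK-2 pairs, all over 0.1, and 0.175, 0.232 and 0.0543 for the RERF-LC-AI pairs. Every library correlated best with its own number, a hint from the data and not from the design, except 1 in LK-2 among the genes over 3. With the replicate number as a block, 5 collagen genes (COL26A1, COL4A6 and COL9A3 higher, COL8A1 and COL18A1 lower, with adjusted p of 8.03e-07 for COL8A1 and 1.34e-08 for COL18A1) and 1190 genes in all passed in LK-2, 13 collagen genes (3 higher, with COL24A1 added, and 10 lower) and 4081 genes in RERF-LC-AI, and 6 collagen genes (COL4A1, COL4A5, COL9A2 and COL17A1 added) and 2273 genes between the lines.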
